A study of Mus musculus with 16 samples.

Results

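The genes described here are the m6A erasers Fto and Alkbh5 and the m6A readers Ythdf1, Ythdf2, Ythdf3, Ythdc1, Ythdc2 and Igf2bp2 in mouse adipose tissue. They were chosen by symbol, 8 of the 17883 genes in the deposited matrix, and all 8 were measured. The series holds 16 libraries in 8 groups of 2: input RNA and RNA captured with an antibody against m6A from 3 conditions, and ribosome-protected fragments (footprints) from the 2 cold conditions. All mice were C57BL/6, aged 8 weeks, and all carried the Mettl3 flox/flox alleles. WT mice had no Cre. The cKO mice also carried Adipoq-Cre +/-, which acts in adipocytes, so other cells of the tissue keep Mettl3. WT RT mice were untreated, at room temperature. WT cold and cKO cold mice were housed singly for 7 days at 4 °C. The study asked what m6A written by METTL3 does in beiging, the gain of heat-producing fat cells in white fat. The labels name no fat depot. They leave it unsaid whether the replicates came from different animals, and the spread behind each p-value may be technical.

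N6-methyladenosine (m6A) is a methyl mark on adenosines of mRNA. A nuclear complex built on METTL3 and METTL14 writes it, the dioxygenases FTO and ALKBH5 remove it, and reader proteins bind marked RNA. YTHDF1, YTHDF2 and YTHDF3 are cytoplasmic readers with a YTH domain, known for roles in translation and mRNA decay. YTHDC1 is the nuclear YTH reader, known for splicing and export, and YTHDC2 is an RNA helicase best known from germ cells. IGF2BP2 belongs to a separate reader family that stabilises mRNA. In fat, FTO is known from its genetic link to body mass, and IGF2BP2 from mice lacking it, which gain less fat.

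RefSeq (GRCm38.p6, the assembly of mm10) places Ythdf1 on chromosome 2 (180904377 to 180920936), Ythdf3 on 3 (16183148 to 16217037), Ythdf2 on 4 (132184916 to 132212256), Ythdc1 on 5 (86803980 to 86836659), Fto on 8 (91313367 to 91668433), Alkbh5 on 11 (60537683 to 60558512) and Igf2bp2 on 16 (22059009 to 22163299). The 3 readers whose RNA was higher in cKO cold than in WT cold are shown by their promoters, to let the sequences be set beside the values. The same source gives promoter windows of 300 bases, from 250 before the start site to 50 after it, for 6 of the 8 genes. For Ythdc1 and Fto the start site of the window lies inside the gene span given above. Positions below count from the start site of the window. Capitals mark the GC box GGGCGG or the E-box CACGTG on either strand, and each sequence is read 5′ to 3′ along its gene.
Ythdf1, chr2:180920887-180921186, minus strand: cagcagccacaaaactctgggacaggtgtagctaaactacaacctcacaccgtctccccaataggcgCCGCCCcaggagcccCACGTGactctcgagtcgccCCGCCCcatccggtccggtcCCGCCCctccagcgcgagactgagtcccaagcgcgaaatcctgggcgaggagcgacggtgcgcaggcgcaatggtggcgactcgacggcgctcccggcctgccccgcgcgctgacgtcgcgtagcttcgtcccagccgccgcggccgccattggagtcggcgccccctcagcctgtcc
Ythdf2, chr4:132212207-132212506, minus strand: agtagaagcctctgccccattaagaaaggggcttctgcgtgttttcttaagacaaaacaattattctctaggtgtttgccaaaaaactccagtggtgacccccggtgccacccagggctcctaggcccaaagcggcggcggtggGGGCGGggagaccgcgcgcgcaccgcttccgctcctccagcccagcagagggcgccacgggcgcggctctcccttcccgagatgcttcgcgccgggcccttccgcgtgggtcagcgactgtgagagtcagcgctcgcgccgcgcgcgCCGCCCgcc
Ythdc1, chr5:86804016-86804315, plus strand: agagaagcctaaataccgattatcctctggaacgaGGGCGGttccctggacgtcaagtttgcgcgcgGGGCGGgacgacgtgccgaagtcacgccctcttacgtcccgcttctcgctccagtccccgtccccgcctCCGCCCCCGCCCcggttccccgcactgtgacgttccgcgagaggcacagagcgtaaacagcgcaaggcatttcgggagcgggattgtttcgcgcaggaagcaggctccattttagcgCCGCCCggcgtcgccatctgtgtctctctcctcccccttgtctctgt
The 3 windows are rich in G and C, at 70.0%, 66.3% and 64.0%, against a median of 52.7% over 32851 promoters. They hold 37, 32 and 35 CpG pairs, against a median of 7. The other windows given were at 76.7% with 47 CpG pairs for Igf2bp2, 60.7% with 23 for Fto and 55.3% with 18 for Alkbh5, so the readers shown are not set apart by these values. Ythdf1 has 3 GC boxes, at -183, -148 and -128 from the start site, Ythdf2 has 2, at -106 and 42, and Ythdc1 has 5, at -215, -183, -114, -108 and 4. Of the other promoters given, Alkbh5 and Igf2bp2 have 2 GC boxes each and Fto has 0. A GC box occurs in 35.7% of all promoters of this length. The E-box, searched on both strands, was found in Ythdf1 alone of the 6, and in 7.15% of all promoters. Matches to letters are descriptions and do not show that a factor binds.

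Values are RPKM, that is reads scaled to the length of the gene and the size of the library. Input libraries held 3895031 to 8673393 recovered reads, m6A libraries 4883129 to 6426541, and footprint libraries no fewer than 1676208 to 2461267. Summed over 6 adipocyte markers, inputs held between 7629.8 and 10656 RPKM, and Adipoq, which defines that list, stood between 471 and 724, as the tissue label says. Mettl3 input RNA was 10.8 and 9.27 RPKM in WT RT, then 5.24 and 3.66 in WT cold, then 3.83 and 1.90 in cKO cold. The difference of Mettl3 RNA between the genotypes did not pass: cKO cold differed from WT cold by -0.53 ± 0.30 (log2, SE; limma adjusted p = 0.215), or -0.93 relative to the median gene, with 4.67% of genes below it. Against WT RT it was lower, at -1.55 ± 0.30 (limma adjusted p = 0.0091). Its footprints were 4.60 and 4.82 RPKM in WT cold against 8.99 and 5.22 in cKO cold. The matrix gives 1 value for the whole gene, with the floxed part not set apart. Below, cKO cold therefore means the libraries labelled cKO. WT RT libraries bear codes of another series than all cold libraries, and an effect of that series cannot be told apart from one of temperature. In bulk tissue, fewer cells of a type and less RNA per cell cannot be told apart.

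The input RNA of the erasers was moderate in every condition. Fto, the eraser that also acts on m6Am, the dimethylated adenosine beside the mRNA cap, stood at 27.7 and 29.0 RPKM in WT RT, then 23.3 and 22.5 in WT cold, then 27.0 and 24.4 in cKO cold. Alkbh5, the other eraser, stood at 33.8 and 30.6, then 23.6 and 20.0, then 28.9 and 30.9. The WT cold libraries of both erasers lay below all 4 others. How many of all genes did so was not counted. The median gene changed by -0.67 (log2) from WT RT to WT cold, and relative to it Fto lay at 0.37 and Alkbh5 at 0.12.

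Ythdf1, known as a reader that promotes translation, stood at 19.5 and 15.8 RPKM in WT RT, then 11.0 and 11.2 in WT cold, then 25.4 and 24.97 in cKO cold. Ythdf2, which brings the CCR4-NOT deadenylase to marked mRNA, stood at 13.9 and 14.4, then 9.10 and 7.12, then 18.2 and 21.9. Both readers were lowest in WT cold and highest in cKO cold, with no overlap between any 2 groups. How many of all genes were apart in this way was not counted. The median change of all genes (log2) was -0.67 in WT cold against WT RT and 0.40 in cKO cold against WT cold. Ythdf3, a reader that acts with the other two, stood at 22.4 and 21.2, then 18.3 and 18.7, then 19.3 and 29.1, the last pair spread across the WT RT values.

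Ythdc1, the nuclear reader, stood at 28.3 and 26.9 RPKM in WT RT, then 10.7 and 14.5 in WT cold, then 18.6 and 24.2 in cKO cold. Ythdc2, the helicase, stood at 3.54 and 2.56, then 1.77 and 0.965, then 1.04 and 1.46. Igf2bp2 stood at 2.15 and 1.84, then 2.75 and 2.94, then 5.12 and 4.08. Ythdc2 and Igf2bp2 were the lowest of the 8 in each condition, on 31 to 198 and 51 to 93 recovered reads, so their values carry the most counting error of the set.

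**Figure D1:**
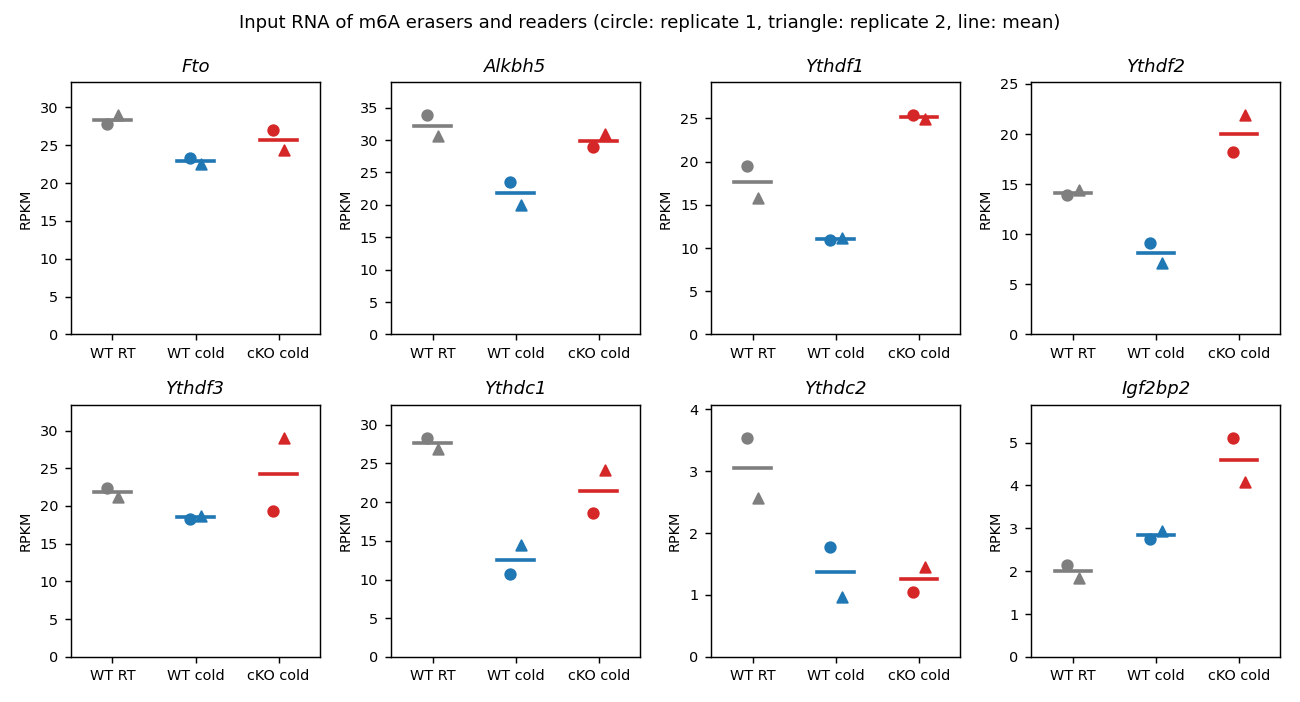
Input RNA (RPKM, vertical axis) of the 8 genes in WT RT, WT cold and cKO cold, each point 1 library and each line the group mean. Ythdf1 lay between 11.0 and 11.2 in WT cold and between 24.97 and 25.4 in cKO cold.

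In order of mean input level per length, WT RT ran Alkbh5, Fto, Ythdc1, Ythdf3, Ythdf1, Ythdf2, Ythdc2 and Igf2bp2, with libraries of Fto and Ythdc1 overlapping. WT cold ran Fto, Alkbh5, Ythdf3, Ythdc1, Ythdf1, Ythdf2, Igf2bp2 and Ythdc2, with overlap between Fto and Alkbh5 and between Ythdc1 and Ythdf1. In cKO cold Alkbh5 led, Fto, Ythdf1, Ythdf3, Ythdc1 and Ythdf2 each overlapped their neighbour, and Igf2bp2 and Ythdc2 were lowest.

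Cold in WT mice was set against room temperature to ask how the genes respond to cold. Of the 8 genes, 5 fell and 0 rose, where 51.2% of 12667 genes fell, 6.52% rose and 57.7% did either. Ythdc1 fell by 1.09 ± 0.20 on the log2 scale (SE, n = 2 libraries a group, limma adjusted p = 0.0039). Ythdf2 fell by 0.74 ± 0.18, Ythdf1 by 0.62 ± 0.16, Alkbh5 by 0.55 ± 0.15 and Ythdc2 by 0.79 ± 0.26, with limma adjusted p of 0.0121, 0.0137, 0.0168 and 0.0388. Fto (-0.30 ± 0.13, adjusted p = 0.0927), Ythdf3 (-0.22 ± 0.20, 0.37) and Igf2bp2 (0.36 ± 0.21, 0.177) did not pass in limma.

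The median of the 8 changes was -0.58, against -0.67 for all genes, close to each other. Relative to the median gene, Ythdc1 lay at -0.42, Ythdf2 at -0.08 and Igf2bp2 at 1.03. When libraries were scaled by median ratios, 0 of the 8 genes passed as lower, and Igf2bp2 rose by 0.90 (limma adjusted p = 0.0149) and Fto by 0.44 (0.0384). All genes then gave 2417 higher and 2552 lower calls, against 826 and 6488. Leaving out a library left 1 fewer sample and larger SEs, and the 4 genes below lost their calls with their directions kept. Without WT RT replicate 1 or 2 the Ythdf2 value was -0.77 and -0.72 with SEs of 0.28 (limma adjusted p = 0.0778 and 0.0851), close to its value with all libraries. Ythdf1 was at -0.48 without WT RT replicate 1 (0.16). Alkbh5 was at -0.48, -0.62 and -0.43 without WT RT replicate 1 or 2 or WT cold replicate 2 (0.157, 0.0777 and 0.059), and Ythdc2 at -0.61, -0.96 and -0.54 without the same 3 (0.283, 0.108 and 0.163).

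Markers of other cell types also differed between WT cold and WT RT inputs. Over 7 T and B cell markers, inputs summed to 595 and 548 RPKM in WT RT and to 0.633 and 1.19 in WT cold, where Cd3e, which defines that list, was at 0.0789 and 0. Over 7 macrophage markers they summed to 571 and 634 and then 130 and 115 RPKM, with 4 of 6 tested markers lower. Neutrophil and mast cell markers (3 of 4 lower) went from 69.1 and 70.2 to 9.34 and 10.9 RPKM. Fibroblast and preadipocyte markers (2 of 5 lower) went from 1499.7 and 1506 to 494 and 340. Beige fat markers, 5 of 5 higher, went from 53.7 and 104 to 1219 and 979. Their part in the result was not tested.

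The genotype comparison in the cold asked how the genes differ when Mettl3 is deleted in adipocytes. Here 3 of the 8 genes were higher in cKO cold and 0 lower, where 23.6% of genes were higher, 2.92% lower and 26.5% either. All 3 are YTH readers: Ythdf2 rose by 1.21 ± 0.18 (limma adjusted p = 0.00793), Ythdf1 by 1.12 ± 0.16 (0.0069) and Ythdc1 by 0.73 ± 0.20 (0.0376). Igf2bp2 (0.54 ± 0.21, adjusted p = 0.0972), Alkbh5 (0.44 ± 0.15, 0.062), Ythdf3 (0.34 ± 0.20, 0.237), Fto (0.16 ± 0.13, 0.383) and Ythdc2 (-0.06 ± 0.26, 0.882) did not pass in limma. The median of the 8 was 0.49, against 0.40 for all genes.

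Ythdf1 and Ythdf2 lay above the median gene by 0.72 and 0.81, and 89.8% and 91.9% of genes had smaller changes. With median-ratio scaling both still rose, by 0.66 (limma adjusted p = 0.0376) and 0.76 (0.0328), while Ythdc1 stood at 0.26 (0.478). All genes then gave 763 higher and 848 lower calls, against 2992 and 370. The calls of Ythdf1 and Ythdf2 held under each alternative run, including the fits without 1 cold input library. Ythdc1 lost its call without WT cold replicate 1 (0.52, limma adjusted p = 0.0949), cKO cold replicate 1 (0.91, 0.0512) or cKO cold replicate 2 (0.55, 0.122), and Alkbh5 gained a call without WT cold replicate 1 (0.0417).

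**Figure D2:**
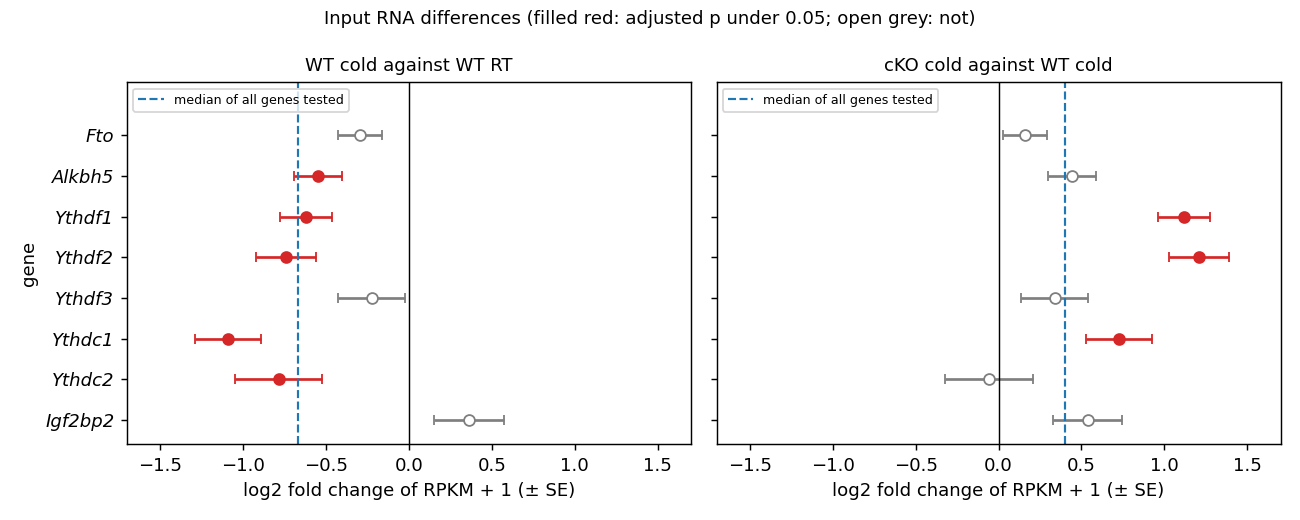
Log2 fold change of RPKM + 1 with its SE for the 8 genes in WT cold against WT RT (left) and cKO cold against WT cold (right), red where the limma adjusted p is under 0.05 and grey where not, with a dashed line at the median of all genes. Ythdf1 and Ythdf2, at 1.12 and 1.21, lie to the right of the median of 0.40 on the right.

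Markers of other cells also differed by genotype. Macrophage markers summed to 130 and 115 RPKM in WT cold, against 1055 and 500 in cKO cold, with 5 of 6 tested markers higher, and 5 of 5 fibroblast and preadipocyte markers were higher, at 494 and 340 against 2115 and 955 RPKM. Markers of beige fat summed to 1219 and 979 RPKM in WT cold, against 109 and 49.3 in cKO cold. Their part in the result was not tested.

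Set against WT RT, in the same fit of 6 input libraries, cKO cold had Igf2bp2 higher by 0.90 ± 0.21 (limma adjusted p = 0.0184), Ythdf1 higher by 0.50 ± 0.16 (0.0493) and Ythdc2 lower, at -0.84 ± 0.26 (0.0483), where 8.38% of genes were higher, 24.7% lower and 33.1% either. With replicates as a block only Igf2bp2 kept its call (0.0267), and Ythdf1 and Ythdc2 had limma adjusted p of 0.0649 and 0.0555. Here the block tied equal replicate numbers across conditions, a link that neither the labels nor the check of pairing gave. With directions kept, all 3 calls were lost without WT RT replicate 1, WT RT replicate 2 or cKO cold replicate 1, and Igf2bp2 alone was called without cKO cold replicate 2. With median-ratio scaling Igf2bp2 and Ythdf1 passed as higher with Ythdf2 (0.71, limma adjusted p = 0.022), Ythdc2 did not pass (-0.63, 0.107), and all genes gave 1734 higher and 1931 lower, against 1062 and 3130. T and B cell markers were lower in 7 of 7 (median -5.69), macrophage markers higher in 3 of 6, and neutrophil and mast cell markers higher in 2 and lower in 2 of 4, and their part in the result was not tested. Each input group, cKO cold included, enters 2 of the 3 input comparisons, which are not independent.

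The m6A libraries of Ythdf1 stood at 38.4 and 43.9 RPKM in WT RT, then 19.6 and 23.7 in WT cold, then 27.2 and 27.2 in cKO cold. Those of Ythdf2 were 26.8 and 26.8, then 11.7 and 11.98, then 14.3 and 15.6. Those of Ythdf3 were 39.6 and 38.6, then 28.1 and 29.5, then 24.6 and 25.4. Each was highest in WT RT.

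Ythdc1 held the most m6A signal of the 8, at 60.8 and 56.5 RPKM in WT RT, then 33.8 and 36.7 in WT cold, then 62.6 and 65.9 in cKO cold. Fto stood at 17.0 and 20.5, then 18.2 and 18.2, then 14.8 and 20.7, and Alkbh5 at 24.7 and 24.2, then 17.2 and 16.6, then 16.7 and 19.4. Ythdc2 stayed between 0.411 and 0.653 RPKM, on 17 to 28 recovered reads, and Igf2bp2 at 1.30 and 1.94, then 3.50 and 2.27, then 5.17 and 6.19.

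A ratio of m6A to input above 1 means that the gene took a larger share of the reads after capture than before. In WT RT, 4 of the 8 genes were higher in m6A and 3 lower, where 16% of 13062 genes were higher, 34.6% lower and 50.6% either. The 4 were readers: Ythdf1 by 1.18 ± 0.14 (log2, SE; limma adjusted p = 0.00011), Ythdc1 by 1.06 ± 0.16 (0.000465), Ythdf2 by 0.87 ± 0.15 (0.000773) and Ythdf3 by 0.81 ± 0.17 (0.00242). Both erasers were lower, Fto at -0.58 ± 0.16 (0.0135) and Alkbh5 at -0.38 ± 0.13 (0.0325), as was Ythdc2 at -1.37 ± 0.22 (0.000558). All genes had a median of -0.25, and relative to it Fto lay at -0.33 and Alkbh5 at -0.14. With median-ratio scaling 4 of the 8 were higher and 1, Ythdc2, lower. Both erasers lost their calls under that scaling, Fto at -0.26 (limma adjusted p = 0.241) and Alkbh5 at -0.06 (0.703). All genes then gave 3142 higher and 2981 lower, against 2088 and 4524. The 5 calls on readers held without any single library of the group. Alkbh5 lost its call at -0.31 and -0.45 without input replicate 1 or 2 (limma adjusted p = 0.184 and 0.0662) and at -0.40 and -0.37 without m6A replicate 1 or 2 (0.1 and 0.123). Fto lost it at -0.61 and -0.55 without input replicate 1 or 2 (0.0532 and 0.0757) and at -0.45 without m6A replicate 1 (0.107).

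In WT cold the same 4 readers were higher, Ythdc1 by 1.43 ± 0.16 (limma adjusted p = 0.000115), Ythdf1 by 0.90 ± 0.14 (0.000736), Ythdf3 by 0.61 ± 0.17 (0.0146) and Ythdf2 by 0.50 ± 0.15 (0.0206), and Ythdc2 was lower, at -0.63 ± 0.22 (0.0414). That is 4 higher and 1 lower of 8, where 13.7% of genes were higher, 25.6% lower and 39.3% either. Alkbh5 (-0.34 ± 0.13, 0.0606) passed with replicates as a block (0.017) and without input replicate 2 (0.0413). Ythdc1 and Ythdf1 kept their calls without any single library. Ythdf2 lost its call at 0.34 without input replicate 2 (limma adjusted p = 0.126) and at 0.52 and 0.49 without m6A replicate 1 or 2 (0.0653 and 0.0792). Ythdf3 lost it at 0.60 without input replicate 1 (0.054) and at 0.57 without m6A replicate 2 (0.0669). Ythdc2 lost it at -0.39 without input replicate 1 (0.246) and at -0.54 and -0.73 without m6A replicate 1 or 2 (0.184 and 0.078). Median-ratio scaling gave 2617 higher and 2751 lower over all genes, against 1792 and 3341.

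In cKO cold 1 of the 8 was higher and 3 lower, where 11.4% of genes were higher, 35.2% lower and 46.6% either. Ythdc1 was higher by 1.55 ± 0.16 (limma adjusted p = 5.22e-05), and it passed in all 3 conditions. Alkbh5 stood at -0.70 ± 0.13 (0.0016), Fto at -0.53 ± 0.16 (0.0226) and Ythdf2 at -0.40 ± 0.15 (0.048). Under median-ratio scaling the Ythdf2 value was 0.02, and 4 of the 8 were higher and 0 lower, with 2754 higher and 2644 lower over all genes, against 1490 and 4602. Ythdf1 (0.11 ± 0.14, limma adjusted p = 0.566) and Ythdf3 (0.08 ± 0.17, 0.736) did not pass, but with median-ratio scaling they did, at 0.53 (0.0176) and 0.50 (0.0454), as did Igf2bp2 at 0.62 (0.0392). The erasers then lost their calls, Alkbh5 at -0.28 (0.0966) and Fto at -0.10 (0.659). Ythdf2 lost its call at -0.27 without input replicate 2 (0.235) and at -0.34 and -0.45 without m6A replicate 1 or 2 (0.182 and 0.0845), and Fto at -0.46 without input replicate 1 (0.0993) and at -0.30 without m6A replicate 1 (0.179).

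The m6A to input ratio of Ythdf2 was 1.92 and 1.86 in the WT RT pairs, then 1.28 and 1.68 in WT cold, then 0.786 and 0.711 in cKO cold. Ythdf1 gave 1.97 and 2.78, then 1.79 and 2.12, then 1.07 and 1.09, and Ythdf3 gave 1.77 and 1.82, then 1.53 and 1.58, then 1.28 and 0.875. For each of these 3 readers, both cKO cold pairs lay below both WT cold pairs. How many of all genes did so was not counted. In the fitted change between these conditions the median gene was at -0.14 (log2). Of all genes, 3.98%, 6.09% and 14.8% lay below Ythdf2, Ythdf1 and Ythdf3. The ratios divide by the same input libraries in which Ythdf1 and Ythdf2 were higher in cKO cold. Ythdc1 gave 2.14 and 2.10, then 3.16 and 2.54, then 3.36 and 2.72, so its cold pairs lay above its room temperature pairs and the genotypes overlapped. Its difference between WT cold and WT RT did not pass when tested, as given below. The erasers stayed below 1 in every pair, Fto between 0.548 and 0.849 and Alkbh5 between 0.578 and 0.830. The median gene was also lower in m6A than in input, at -0.25, -0.11 and -0.30 (log2) in WT RT, WT cold and cKO cold, so 1 does not mark the median gene. Ythdc2 lay between 0.178 and 0.626, and Igf2bp2 lay on both sides of 1, between 0.604 and 1.52.

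Whether the ratio itself differed was tested as an interaction. Between cKO cold and WT cold 0 of 8 genes passed, and 0.0% of all genes did, while 1311 genes and 3 of the 8 had an unadjusted limma p under 0.05. Ythdf2 was -0.90 ± 0.21 (limma adjusted p = 0.153), Ythdf1 -0.80 ± 0.20 (0.193) and Ythdf3 -0.53 ± 0.23 (0.484). With replicates as a block Ythdf2 passed (0.0348), with 405 genes in all, and Ythdf1 did not (0.0566). The other 5 ran from Alkbh5 (-0.36 ± 0.19) to Igf2bp2 (0.26 ± 0.30).

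For cold against room temperature 0 of 8 passed, where 0.0612% of genes did (0.023% higher and 0.0383% lower), and 1 of the 8 had an unadjusted limma p under 0.05. Ythdc2 had the largest value, 0.74 ± 0.31 (limma adjusted p = 0.399), from 17 to 28 m6A reads. Ythdf2 was at -0.37 ± 0.21 (0.565) and Ythdc1 at 0.37 ± 0.23 (0.615), where the median gene was at 0.11. Single m6A sites were not analysed here.

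**Figure D3:**
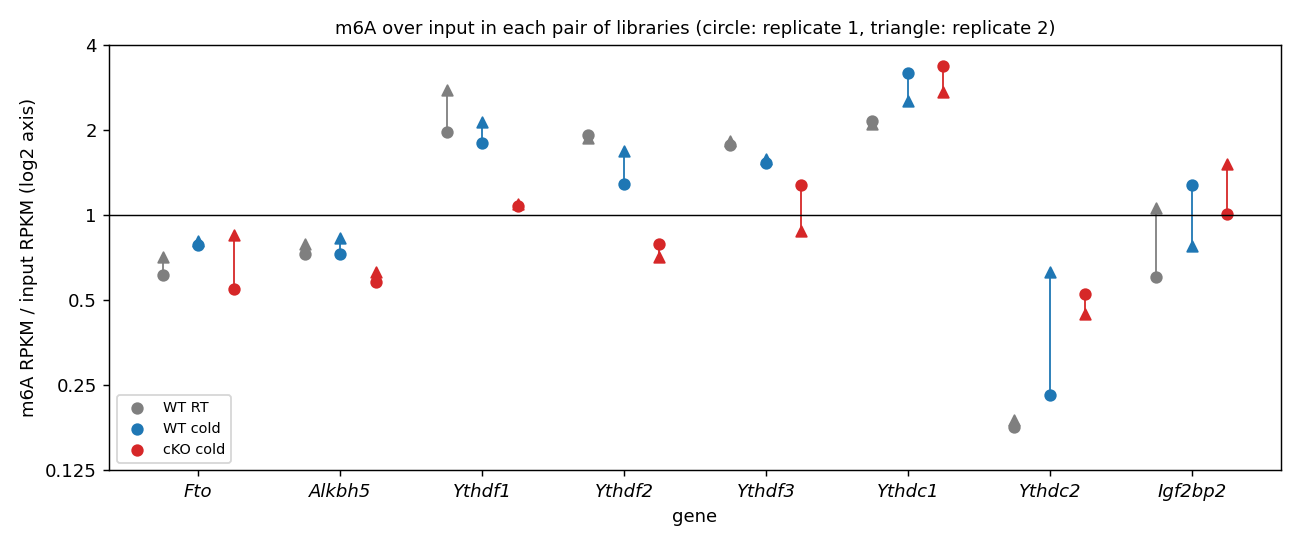
Ratio of m6A RPKM to input RPKM (log2 axis) for each of the 8 genes in each pair of libraries, with circles for replicate 1 and triangles for replicate 2. The cKO cold pairs of Ythdf2 sit at 0.786 and 0.711, below 1, and those of WT cold at 1.28 and 1.68. In cKO cold the median gene was also lower in m6A than in input (-0.30, log2).

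Footprints count ribosome-protected fragments, and their RPKM share no length scale with the input, so levels are compared between groups and not with the input. Ythdf1 footprints were 14.6 and 15.5 RPKM in WT cold, against 31.4 and 32.1 in cKO cold. Ythdf2 footprints were 27.4 and 27.2 against 55.3 and 89.8. Neither gene's groups overlapped. The share of all genes without overlap was not counted, and the median footprint change of all genes was 0.42 (log2).

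Of the other readers, Ythdf3 was at 44.7 and 53.4 against 62.5 and 69.4 RPKM, Ythdc1 at 12.1 and 14.2 against 22.7 and 20.1, and Ythdc2 at 3.60 and 2.18 against 4.67 and 4.37. Igf2bp2 footprints, at 2.03 and 0.295 against 0.518 and 4.05, rest on at least 1 to 19 reads. The erasers were Fto at 78.6 and 55.3 against 54.7 and 89.2, overlapping, and Alkbh5 at 21.9 and 25.7 against 42.7 and 28.4, not overlapping.

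In the footprints 2 of the 8 genes were higher in cKO cold and 0 lower, where 5.61% of 12763 genes were higher, 1.54% lower and 7.15% either. Ythdf2 rose by 1.34 ± 0.28 (limma adjusted p = 0.0305) and Ythdf1 by 1.03 ± 0.21 (0.0297). With median-ratio scaling neither passed, at 0.87 (0.148) and 0.57 (0.215), and all genes then gave 101 higher and 322 lower, against 716 and 196. Without any 1 of the 4 footprint libraries Ythdf1 stayed between 0.99 and 1.07 and lost its call (limma adjusted p of 0.0562, 0.0995, 0.0989 and 0.0575). Ythdf2 lost its call at 1.34 and 1.33 without WT cold replicate 1 or 2 (0.0585 and 0.117) and at 0.99 without cKO cold replicate 2 (0.0686). Of the marker lists, macrophages were higher in 3 of 6, fibroblasts and preadipocytes in 1 of 5, and beige fat lower in 3 of 5, and their part in the result was not tested.

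The other 6 genes did not pass: Ythdc1 0.66 ± 0.26 (limma adjusted p = 0.129), Alkbh5 0.54 ± 0.25, Ythdc2 0.53 ± 0.34, Igf2bp2 0.48 ± 0.58, Ythdf3 0.42 ± 0.25 and Fto 0.08 ± 0.28. The median over all genes was 0.42, and over the 8 it was 0.53.

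**Figure D4:**
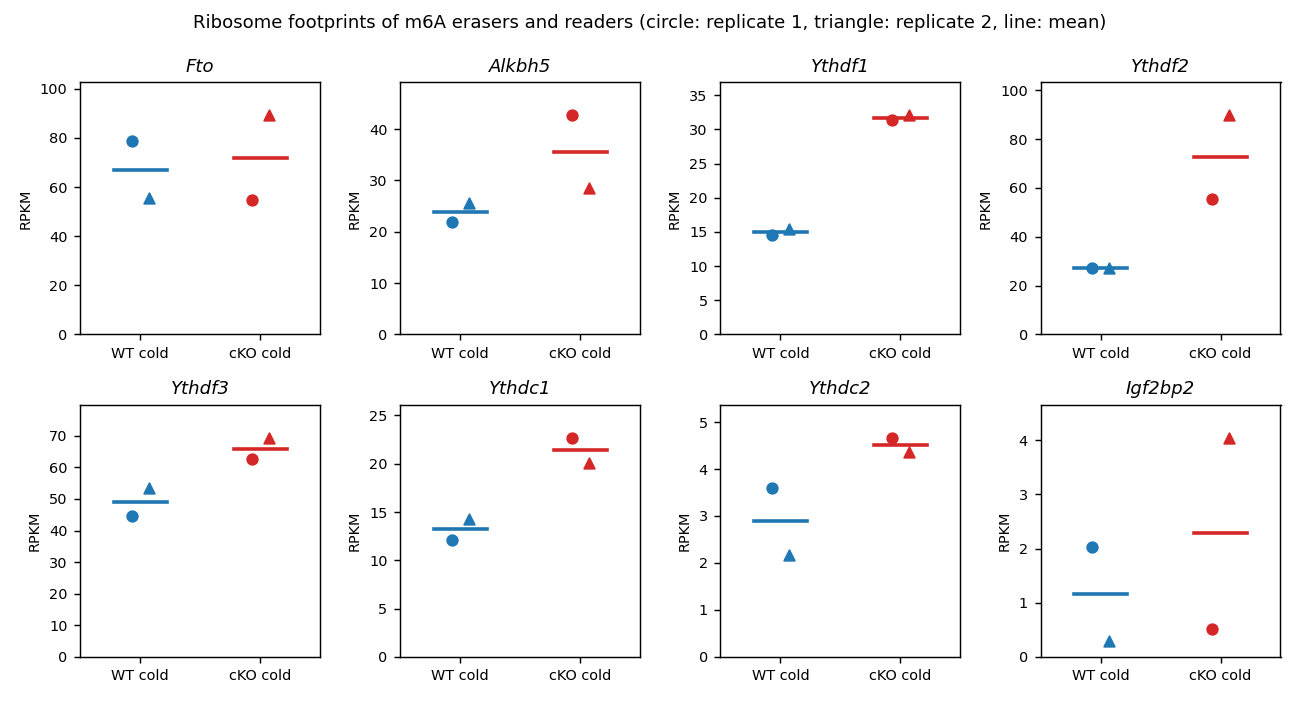
Ribosome footprints (RPKM) of the 8 genes in WT cold and cKO cold, with each point 1 library and each line the group mean. The 2 cKO cold libraries of Ythdf1, at 31.4 and 32.1, lie above both WT cold libraries.

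Footprints over input, tested as an interaction, changed in 0 of 8 genes and in 0.0% of all, with 459 genes and 0 of the 8 at an unadjusted limma p under 0.05. Ythdf1 stood at -0.09 ± 0.30 and Ythdf2 at 0.13 ± 0.39. Footprint and input libraries differ in T and B cell markers, which summed to 375 and 266 RPKM in the WT cold footprints and to 0.633 and 1.19 in the WT cold inputs. Skeletal muscle markers ran opposite ways in the cKO cold libraries, 2.57 and 128 RPKM in input and 223 and 4.10 in footprints. The part of these markers in the result was not tested. The labels do not say whether footprints and input of a condition came from the same tissue samples, which limits what footprints over input compares.

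As ratios of the group means, cKO cold over WT cold, Ythdf2 stood at 2.47 in input, 1.26 in m6A and 2.66 in footprints, and Ythdf1 at 2.27, 1.26 and 2.11. Ythdc1 gave 1.703, 1.82 and 1.62, with the 3 kinds of library close to each other. Fto gave 1.12, 0.975 and 1.07, and Alkbh5 gave 1.37, 1.07 and 1.49. Ythdf3 gave 1.30, 0.869 and 1.35. Ythdc2 gave 0.914, 1.18 and 1.56, and Igf2bp2 gave 1.62, 1.97 and 1.97, on at least 1 to 19 footprint reads.

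**Figure D5:**
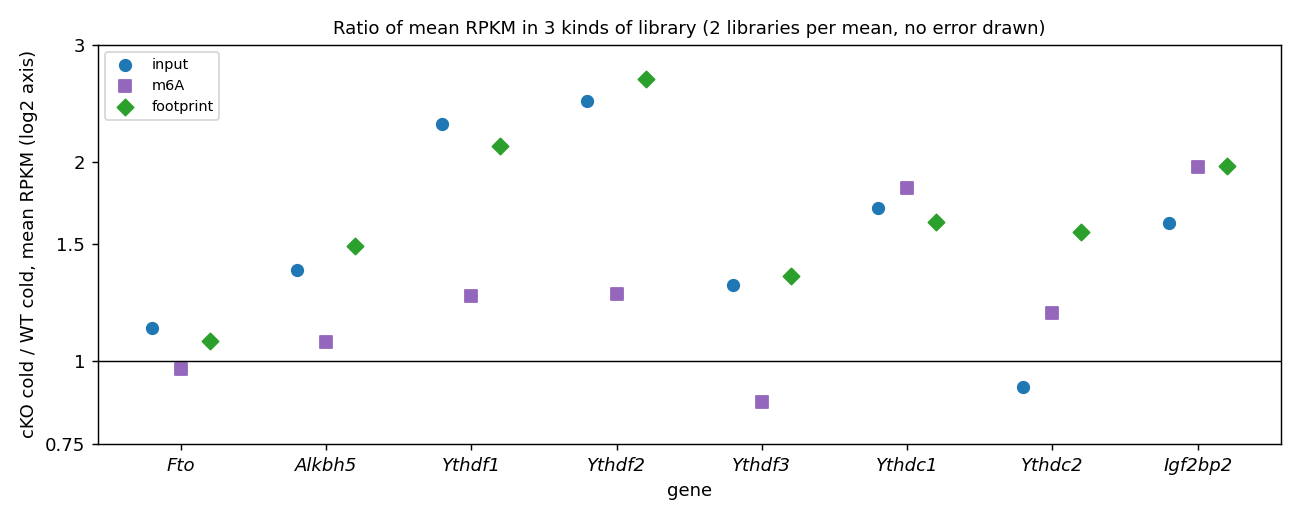
Ratio of mean RPKM in cKO cold to WT cold (log2 axis, 2 libraries per mean, no error drawn) for input, m6A and footprint libraries. For Ythdf1 and Ythdf2 the m6A ratio of 1.26 lies below the input ratios of 2.27 and 2.47.

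The other genes of the pathway give the surroundings, by lists chosen with earlier results of these data known. In WT cold against WT RT, 11 of 12 writers and associated genes fell and 0 rose, with a median of -0.99, where 51.2% of all genes fell, led by Pcif1 (-1.45 ± 0.18, the enzyme that writes m6Am next to the cap) and Mettl14 (-1.37 ± 0.22). The median over all genes was -0.67. Of other readers 4 of 5 fell (median -0.80), led by Prrc2a (-1.42 ± 0.12) and Hnrnpc (-0.82 ± 0.14), and of CCR4-NOT genes, which shorten poly(A) tails, 10 of 13 fell (-0.70), led by Cnot3 (-1.41 ± 0.20) and Cnot6 (-1.22 ± 0.17). Of reader partners 5 of 7 fell (-1.15), led by the export factor Nxf1 (-1.33 ± 0.13) and Srsf3 (-1.28 ± 0.16), and of other AlkB homologues 2 of 7 (-0.47), Alkbh4 (-1.84 ± 0.45) and Alkbh1 (-1.67 ± 0.29). None of these lists held a gene that rose. With median-ratio scaling these became 3 writers, 1 reader, 2 CCR4-NOT genes, 2 partners and 1 homologue lower, and 1 writer, 1 CCR4-NOT gene and 1 homologue higher.

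In cKO cold against WT cold, where 23.6% of all genes were higher, 2 of 12 writers were higher, Rbm15b (0.84 ± 0.19) and Wtap (0.65 ± 0.15), both subunits that place the writer on mRNA. Among other readers 2 of 5 were higher, Hnrnpc (0.55 ± 0.14) and Prrc2a (0.43 ± 0.12), among CCR4-NOT genes 2 of 13, Cnot9 (0.76 ± 0.16) and Cnot6 (0.56 ± 0.17), and among partners 3 of 7, with Srsf10 (0.69 ± 0.17) and Srsf3 (0.61 ± 0.16) leading. Of the AlkB homologues 0 of 7 passed in limma. The medians were 0.42 for writers, 0.37 for other readers, 0.17 for CCR4-NOT genes, 0.44 for partners and 0.18 for AlkB homologues, against 0.40 for all genes. With median-ratio scaling 0 genes of these lists were higher and 1, a CCR4-NOT gene, was lower. In the footprints 1 of 13 CCR4-NOT genes was higher and no gene of the other lists passed.

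For m6A over input in WT RT, where 16% of all genes were higher and 34.6% lower, 4 of 12 writers were higher and 3 lower (median -0.03, against -0.25 for all genes), while of CCR4-NOT genes 1 was higher and 8 of 13 lower, and of AlkB homologues 0 were higher and 3 of 7 lower. Of other readers 1 was higher and 4 of 5 lower, and of partners 1 was higher and 5 of 7 lower.

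Genes whose pattern was most like each of the 8 were named by Pearson's r of log2(RPKM + 1) over the 16 libraries among 10622 genes. The libraries are of 3 kinds, and a gene's fixed differences between kinds enter these values. Fto ran with Clptm1 (0.986) and St7l (0.981), Alkbh5 with Ints14 (0.954) and Ccnd3 (0.942), and Ythdf1 with Tpgs1 (0.964) and AI837181 (0.959). Ythdf2 ran with Tmem214 (0.976) and Sel1l (0.969), Ythdf3 with Tspyl1 and Ppp4r2 (both 0.971), and Ythdc1 with Dhx38 (0.968) and Gpatch4 (0.965). Ythdc2, itself under the level asked of the genes compared, ran with Dkc1 (0.965) and Mthfd2 (0.964). Igf2bp2 was less alike to any, at 0.858 with Nedd4l and 0.831 with Col5a3.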

How the data were processed

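Input RNA, m6A-captured RNA and ribosome footprints were deposited by the authors as RPKM for 17883 genes in 16 libraries, 2 per group. Per the submitters' processing notes, HISAT2 and the build mm10 were used; no version is given. The counting tool, the annotation and the reads used for scaling are not given in the sources used here. All value columns were used, 0 were left out, and 17871 identifiers matched the reference table.

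Whole reads were recovered from the values by finding 1 constant per library. For footprints they hold only up to a common factor, so totals are lower bounds. Values were tested as log2(RPKM + 1), which shrinks changes of low genes, with limma 3.58.1 in R 4.3.3 (lmFit, trended eBayes, two-sided tests), on genes at 1 RPKM or more in 2 libraries or more of the fit. The fits held 6 input, 12 input and m6A, and 8 cold input and footprint libraries. Benjamini-Hochberg values over all genes tested had a threshold of 0.05. Scripts were tested on simulated data. Figures used Python 3.11.15, numpy 2.4.6, pandas 2.3.3 and matplotlib 3.10.9.

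Numbers of replicates were checked for pairing: deviations from group means correlated at 0.305 to 0.656 in 7 pairs of libraries from 1 condition with the same number, and at -0.0994 to 0.0779 in 21 pairs from other conditions. On this basis, which the labels do not state, equal numbers inside each condition were paired for the m6A to input ratios. The replicate block used the same pairs in tests between kinds of library. The main fits held no block and were unpaired. In tests within a kind of library, the block tied equal numbers across conditions, where deviations correlated at only -0.0994 to 0.0779. All 8 genes are named with their levels in every kind of library. In the tests, genes called are named, and genes not called are not all named in every comparison. Of each list, the up to 2 genes called with the largest change in each direction are named for WT cold against WT RT and cKO cold against WT cold inputs. The 2 genes most alike to each of the 8 are named as well. The 8 genes, the lists and the tests were chosen with earlier results of these data known. The alternatives were a pseudocount of 0.1, no filter, median-ratio and quantile scaling, limma-voom on recovered reads, 1 fit of all 16 libraries, a replicate block and leaving out each library.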

Additional observations from a re-analysis of the deposited data

Results flagged for a closer look

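With replicates as a block, the change of m6A over input of Ythdf2 between cKO cold and WT cold was -0.90 (limma adjusted p = 0.0348), while without the block the same value had an adjusted p of 0.153. It is listed because a test of the difference in ratio between genotypes passed in this setting, 1 of 16. Under the block 405 genes passed in all, against 0 in the main fit. Both cKO cold pairs had ratios below 1 (0.786 and 0.711) and both WT cold pairs above 1 (1.28 and 1.68). With median-ratio scaling m6A over input of Ythdf2 in cKO cold was at 0.02 (log2), and the change between genotypes at -0.69 (limma adjusted p = 0.403).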

How the results depend on the processing

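Of 976 values of the 8 genes under the alternatives, 804 kept their direction and side of the threshold, 90 lost the call, 16 gained it, 59 without a call changed sign and 7 with a call in either fit reversed. Genes of the 8 called in WT cold against WT RT went from 5, all lower, to 2 with median-ratio and 1 with quantile scaling. None of the 5 kept its call under either scaling, and 0 of the 8 were called lower. The calls were Igf2bp2 and Fto as higher with median-ratio scaling, and Igf2bp2 as higher with quantile scaling (1.26, limma adjusted p = 0.0033). Calls were also lost as single libraries were left out, with directions kept. Reversed in that comparison were Alkbh5 (0.19), Fto (0.44) and Ythdf1 (0.0892) with median-ratio scaling, and Ythdc2 (0.13), Ythdf1 (0.0754) and Ythdf2 (0.0191) with quantile scaling, and so was Ythdf2 (0.0203) in m6A over input in cKO cold with median-ratio scaling. In cKO cold against WT RT the 3 calls became 1 with a pseudocount of 0.1, 1 with no filter and 1 with the replicate block, and 0 to 1 as single libraries were left out. For m6A over input, 1 fit of all 16 libraries took the calls from 5 to 3 in WT cold and from 4 to 2 in cKO cold, and leaving out libraries gave 2 to 5 and 2 to 3. The replicate block gave 1 call for the genotype change of m6A over input, against 0, and changed no other call than those named in the report. For footprints the 2 calls became 1 with no filter, 0 with median-ratio scaling, 0 with quantile scaling and 1 with limma-voom, and 0 to 1 as single libraries were left out. The cause was not tested, beyond there being fewer libraries.

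Over all genes, cold against room temperature gave 7314 calls, but 3419 and 3956 without WT RT replicate 1 or 2. cKO cold against WT cold gave 3362, but 1611 with median-ratio scaling, 1411 with quantile scaling, 1895 without WT cold replicate 2 and 1729 without cKO cold replicate 1. cKO cold against WT RT gave 4192, but 858 and 978 without WT RT replicate 1 or 2. The temperature change of m6A over input gave 8 genes, 0 with a pseudocount of 0.1 or limma-voom, 16 with no filter, 66 with quantile scaling, 5 with all 16 libraries, 270 with the replicate block, and 0 to 7 without single libraries. The genotype change gave 0, 2 with no filter, 1 with median-ratio scaling, 405 with the block and 6 without WT cold input replicate 1. Footprints gave 912, 572 with a pseudocount of 0.1, 372 with no filter, 423 with median-ratio and 238 with quantile scaling, 378 with limma-voom, 3774 with all 16 libraries, and 93 and 94 without WT cold replicate 2 or cKO cold replicate 1. Footprints over input gave 0, 2 with quantile scaling and 6 with all 16 libraries.

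Depth was lowest for Ythdc2 in m6A, at 17 to 28 reads a library, and for Igf2bp2 in footprints, at no fewer than 1 to 19. Groups hold 2 libraries throughout, and a call lost in a fit with fewer libraries does not show a weaker difference.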
